A study of Mus musculus with 3 samples.

Results

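Cblb, Dusp16, Pag1, Pik3ap1, Stk10 and Ptprj are 6 genes grouped here as signaling brakes. Their mRNAs were followed in PB leukocytes of naive and leukemic mice. The group name is a label for the list and not a finding on what each product does in these cells. Out of 32285 measured features they were chosen by their level in these same libraries, higher in non-classical monocytes (ncMonos) than in classical monocytes (cMonos). That contrast was used up in the choice and is given below as a description only. The ncMono level was part of the choice, so the ratios of ncMonos over other classes are descriptions too. The libraries were made by 10x 3' scRNA-Seq from 1 sample per condition: a naive wild-type Balb/C mouse library, and libraries of leukemic animals taken 11 days (D11) and 14 days (D14) after engraftment. The recipients were young adult female Balb/C mice without any engineered allele, and the leukemic ones had received BBC2 cells, a line that resembles B-lineage precursors and carries an FGFR1 fusion, the lesion that defines the stem cell leukemia and lymphoma syndrome (SCLL). All samples went through red cell lysis and dead cell removal, and the number of mice behind each library was not given in the sources used here. With 1 library per condition, a difference between conditions cannot be told apart from a difference between libraries, so there is no test, p-value or SE in what follows, and every interval is a 95% interval for counting error only.

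Monocytes leave the bone marrow as cMonos, which carry Ly6C and CCR2 and enter inflamed tissue, and part of them turn into ncMonos, which lose Ly6C, depend on the nuclear receptor Nr4a1 and patrol the vessel wall. Signals from Fc receptors, Toll-like receptors and cytokine receptors in these cells run through SRC and SYK family tyrosine kinases, PI3K and MAP kinases, and each step has inhibitors that shut the signal off again. PAG1 is a membrane adaptor that brings the kinase CSK to SRC family kinases, and PTPRJ (CD148) is a receptor-type tyrosine phosphatase that can act on the same kinases. PIK3AP1 (BCAP) links receptors to PI3K and dampens Toll-like receptor signals, so it is an activator in some settings. CBLB is a ubiquitin ligase that marks activated signaling proteins, DUSP16 is a phosphatase of the MAP kinase JNK, and STK10 (LOK) is a kinase of the ERM proteins that tie membrane to the actin cortex. The libraries hold mRNA levels, and no activity of any of these proteins was measured.

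Cell barcodes with under 200 genes, or with over 10% of UMIs from mitochondrial genes, were set aside, and 3811 (naive), 4567 (D11) and 4414 (D14) barcodes remained. A barcode was placed in 1 of 9 classes when at least 3 of the 8 markers of that class had a UMI and no other class had more than 0.5 times that number of its own, which left 7.64%, 14.5% and 26.3% of the kept barcodes without a class. Barcodes in which the smaller monocyte list exceeded that limit are called intermediate. The ncMono gate held 116 naive, 188 D11 and 624 D14 barcodes with 917021, 1625554 and 6259270 UMIs, and the cMono gate held 134, 227 and 91 barcodes. The UMIs of a gate in a library were summed and are given as CPM, the UMIs of a gene scaled by the total UMIs of the gate. Gate sums of fewer than 50 barcodes are not given. B cells thus have no D14 value, leukemia, erythroid and intermediate barcodes no naive value, and platelets no value at all. The T cell subsets and monocyte bins given later had no such limit. Libraries shared 3 to 5 kept barcode sequences with each other, and 0 of them were ncMonos in both.

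The ncMono gate was checked against markers that it did not use, here called check markers. The 8-marker lists of other classes were its rival lists, so their low sums were partly set by the gate. The 6 ncMono check markers outside the gate (Nr4a1, Cx3cr1, Csf1r, Ceacam1, Stap1 and Gngt2) all had UMIs in every library and summed to 2945, 3412 and 3325 CPM in naive, D11 and D14. The 8 cMono gate markers summed to 396, 336 and 332 CPM, but the 6 cMono check markers to 2156, 2686 and 1856 CPM, against 7077, 7227 and 6368 CPM in the cMono gate. The 8 T markers summed to 20.7, 7.38 and 3.20 CPM and the 8 neutrophil markers to 158, 151 and 142 CPM. The 8 leukemia markers summed to 2.18, 2.46 and 25.9 CPM. Check markers summed to 46.9, 9.84 and 13.4 CPM for T cells and to 254, 103 and 352 CPM for neutrophils. Those of leukemia cells summed to 62.2, 99.0 and 141 CPM, and those of B cells to 148, 113 and 61.8 CPM. The 8 B markers went from 158 to 73.2 and 31.6 CPM, and the 6 erythroid check markers, most of them hemoglobin genes, from 179 to 24563 and 10725 CPM. Hemoglobin genes took 0.0173%, 2.45% and 1.07% of its UMIs. Of the ncMono barcodes, 19.8%, 7.98% and 5.77% held at least 2 markers of a rival class and would have left the gate with 1 more.

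All 6 genes lie in long transcription units on the GRCm38 mouse genome. Cblb (ENSMUSG00000022637) spans chr16:52031225-52208048 on the plus strand, which is 177 kb, and Stk10 (ENSMUSG00000020272) spans chr11:32533305-32624587 on the same strand, 91.3 kb. The other four are on the minus strand: Dusp16 (ENSMUSG00000030203) at chr6:134715468-134792625, 77.2 kb; Pag1 (ENSMUSG00000027508) at chr3:9687479-9833679, 146 kb; Pik3ap1 (ENSMUSG00000025017) at chr19:41272377-41385102, 113 kb; and Ptprj (ENSMUSG00000025314) at chr2:90429754-90580647, 151 kb. Genes of 70 kb and over took 33.5%, 29.5% and 32.0% of ncMono UMIs and 21.8%, 21.6% and 20.4% of cMono UMIs in naive, D11 and D14.

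RefSeq gave a start site for 5 of the 6 genes. The 250 bases before it are printed for the 3 starts that lie wholly outside the annotated gene, because these genes have different distributions over the blood: Dusp16 was high in ncMonos and neutrophils and low elsewhere, Pik3ap1 was almost absent from T cells, and Stk10 was present in every leukocyte class. Capitals mark each GC box (GGGCGG, either strand), and positions are on GRCm38.p6, Dusp16 at chr6:134792629-134792878 (minus strand), Pik3ap1 at chr19:41385103-41385352 (minus strand) and Stk10 at chr11:32533016-32533265 (plus strand).
Dusp16: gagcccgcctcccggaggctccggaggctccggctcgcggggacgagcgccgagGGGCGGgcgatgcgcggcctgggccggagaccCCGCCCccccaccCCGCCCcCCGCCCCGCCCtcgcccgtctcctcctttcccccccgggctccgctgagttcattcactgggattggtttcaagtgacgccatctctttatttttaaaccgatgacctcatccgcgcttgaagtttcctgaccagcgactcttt
Pik3ap1: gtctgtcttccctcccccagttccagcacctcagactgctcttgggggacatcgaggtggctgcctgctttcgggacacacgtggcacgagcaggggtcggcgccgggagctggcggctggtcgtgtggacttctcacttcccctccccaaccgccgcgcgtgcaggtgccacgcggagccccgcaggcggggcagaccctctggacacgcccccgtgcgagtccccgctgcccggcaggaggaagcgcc
Stk10: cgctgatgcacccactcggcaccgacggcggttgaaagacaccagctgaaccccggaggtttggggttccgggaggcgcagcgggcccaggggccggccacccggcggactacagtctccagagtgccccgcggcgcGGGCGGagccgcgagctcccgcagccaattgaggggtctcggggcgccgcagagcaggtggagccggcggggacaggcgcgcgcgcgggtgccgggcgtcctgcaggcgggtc

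These windows were 68.4%, 71.2% and 75.6% GC for Dusp16, Pik3ap1 and Stk10, above the median of 52.4% over 32851 promoter windows of the same length. The GC box, which is read by SP and KLF proteins, matched 5 times in Dusp16, 1 time in Stk10 and 0 times in Pik3ap1, and 32.7% of all windows held at least 1. None of the 5 genes' windows held a match to the PU.1 letters GAGGAAGT (2.44% of all windows), the NR4A letters AAAGGTCA (1.34%), the AP-1 letters TGANTCA (6.75%) or the C/EBP letters TTGCNNAA (9.56%), each searched on both strands. The CRE (TGACGTCA), ETS (CCGGAAGT), NF-kB and NRF1 motifs had no match either, and 1.55%, 2.88%, 1.41% and 0.782% of all windows held them. A match or its absence describes these letters in these windows and says nothing about binding.

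**Figure D1:**
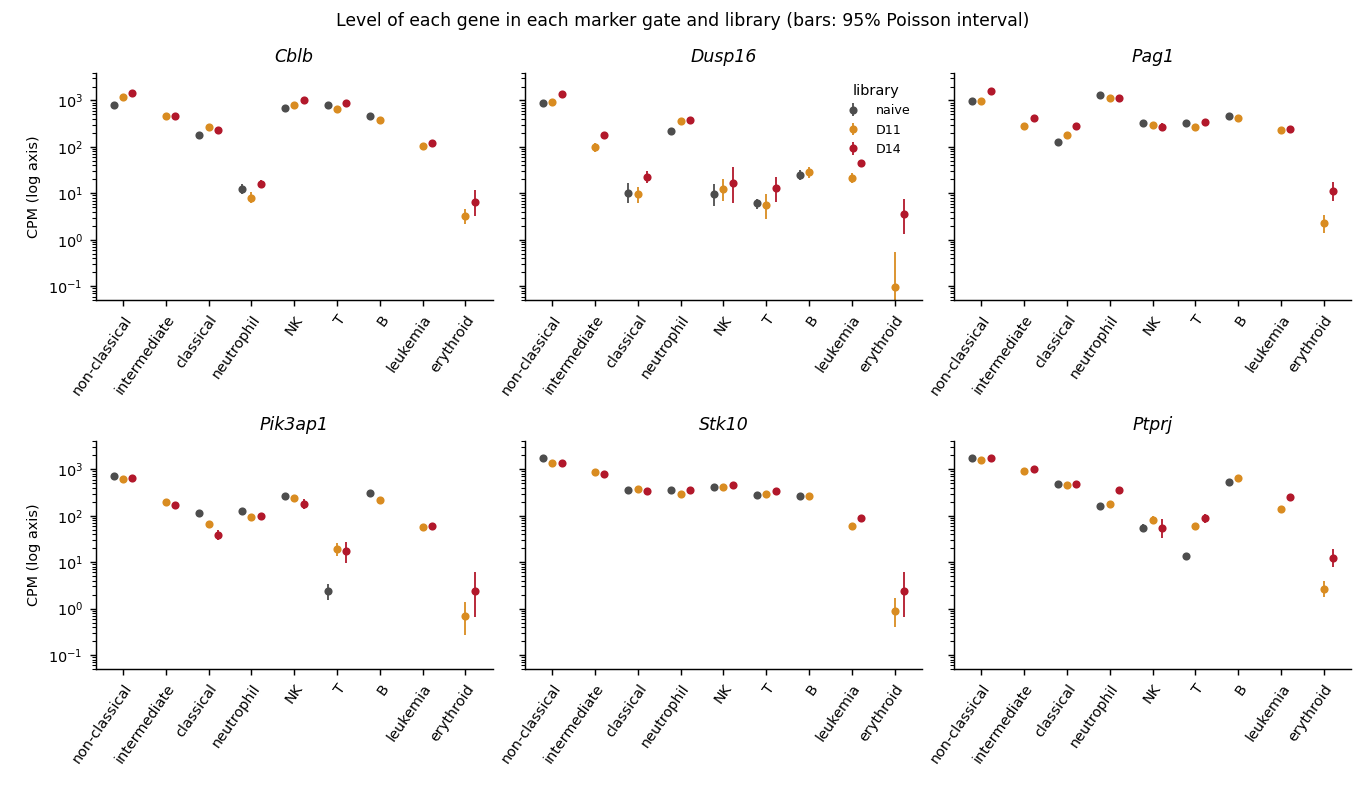
Level of each gene in CPM (log axis) in each marker gate, with 1 point per library (grey naive, orange D11, red D14) and its 95% Poisson interval. The ncMono points of Dusp16 lie at 893 to 1379 CPM and its neutrophil points at 222 to 383 CPM, with every other leukocyte class but the intermediate one under 50 CPM, while the Pag1 points of neutrophils (1122 to 1335 CPM) reach those of ncMonos.

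Pag1 was carried by ncMonos and neutrophils alike. In ncMonos it stood at 978 CPM in naive, 978 in D11 and 1568 in D14. In neutrophils it stood at 1335, 1130 and 1122 CPM. Neutrophils therefore had the higher level in naive and D11 (log2 ratio of ncMono over neutrophil -0.45, interval -0.55 to -0.35, and -0.21, -0.29 to -0.13) and ncMonos in D14 (0.48, 0.44 to 0.53). That order depends on the scale: over all genes the ncMono to neutrophil ratio had a median of 1.002 in D14, and with TMM factors, which moved this median to -0.10, the D14 value of Pag1 became -0.49. In cMonos Pag1 was lowest among the leukocytes of the naive library, at 127 CPM, and stood at 177 and 285 CPM in D11 and D14. T cells (329, 275 and 341 CPM), NK cells (321, 297 and 275 CPM) and B cells (453 and 420 CPM in naive and D11) held a middle level.

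Ptprj was high in ncMonos in each library, with 1759, 1595 and 1768 CPM in naive, D11 and D14. Intermediate barcodes (917 and 999.9 CPM in D11 and D14), B cells (529 and 651 CPM in naive and D11) and cMonos (474, 462 and 493 CPM) followed. Its lowest leukocyte levels were in lymphocytes other than B cells: NK cells had 54.9, 82.4 and 55.5 CPM, and T cells 13.7, 59.9 and 87.5 CPM. In D14 the T and NK values did not differ beyond counting error. Neutrophils held 166, 176 and 352 CPM, so their D14 value lay above both others.

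Pik3ap1 also had its top level in ncMonos, at 713, 608 and 646 CPM. NK cells (265, 245 and 180 CPM) and B cells (309 and 213 CPM) came next, and NK and B cells in D11 did not differ beyond counting error. BCAP is best known as an adaptor of the B-cell receptor, and here ncMonos carried more of its mRNA than B cells, by a log2 ratio of 1.21 (1.06 to 1.36) in naive and 1.51 (1.34 to 1.69) in D11. T cells were almost without it: 27 UMIs among 11576992 in the naive library, or 2.33 CPM (1.54 to 3.39). In cMonos it stood at 112, 66.9 and 38.6 CPM.

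Cblb was shared between ncMonos and the T and NK lineages. ncMonos had 818, 1175 and 1444 CPM, T cells 812, 649 and 892 CPM, and NK cells 678, 798 and 1029 CPM. In the naive library ncMonos and T cells were level (log2 ratio 0.01, -0.10 to 0.12), and ncMonos stood above T cells in D11 (0.86, 0.76 to 0.96) and in D14 (0.70, 0.59 to 0.80). CBLB is known as a check on T-cell activation, and in T cells split by Cd4 and Cd8 UMIs it was found in both subsets, at 835 CPM in CD4 and 787 in CD8 cells of the naive library. Neutrophils lay at the other end, with 12.5, 8.11 and 15.9 CPM. Erythroid barcodes, in which hemoglobin dilutes every other gene, held 3.23 and 6.502 CPM in D11 and D14.

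Dusp16 had the narrowest distribution. ncMonos held 893, 942 and 1379 CPM and neutrophils 222, 357 and 383 CPM, and intermediate barcodes followed with 98.2 and 183 CPM in D11 and D14. Every other leukocyte sum, lymphoid and cMono alike, was between 5.53 and 28.5 CPM, and leukemia cells had 21.6 and 44.6 CPM. cMonos, the precursors of ncMonos, carried 10.3, 9.46 and 22.8 CPM, from 18, 29 and 46 UMIs, and did not differ from NK cells beyond counting error in any library. In cMonos of D14 the Dusp16 UMIs came from 26 of 91 barcodes. Barcodes with and without one had means of 1.5 and 1.4 ncMono markers in D14, 1.32 and 1.12 in D11, and 1.21 and 1.25 in naive. The cMono gate itself limits this number, and the source of these UMIs was not tested.

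Stk10 was the most evenly spread of the 6 outside ncMonos. It stood at 1781, 1377 and 1336 CPM in ncMonos. In the other leukocyte classes it kept to a band of 264 to 469 CPM in all libraries, apart from intermediate barcodes at 880 and 785 CPM. Several neighbours inside that band, such as neutrophils and cMonos in naive (358 and 350 CPM) or NK cells and cMonos in D11 (417 and 380 CPM), did not differ beyond counting error. Leukemia cells were below the band at 61.4 and 87.6 CPM.

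Leukemia cells carried less of each gene than ncMonos did. In D14, where 645 leukemia barcodes gave 21050891 UMIs, the log2 ratio of ncMono over leukemia was 2.70 for Pag1, 2.82 for Ptprj, 3.44 for Pik3ap1, 3.58 for Cblb, 3.93 for Stk10 and 4.95 for Dusp16. All 6 were therefore past 2-fold, beside 21.8% of the 9510 genes with at least 10 CPM in either sum and 45.3% of the 457 genes with at least 500 CPM. The leukemia cells of D14 had more Dusp16 than those of D11 (44.6 against 21.6 CPM, log2 ratio 1.04, 0.69 to 1.42), more Ptprj (251 against 141 CPM, 0.83, 0.69 to 0.97) and more Stk10 (87.6 against 61.4 CPM, 0.51, 0.30 to 0.73). Dusp16 alone was past 2-fold, beside 3.02% of all genes, and the D11 value rests on 68 UMIs from 95 barcodes. Pag1 and Pik3ap1 had intervals that included 0 (0.04, -0.07 to 0.16, and 0.08, -0.15 to 0.32).

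Against T and NK cells of D14 and B cells of naive, the gap was widest for Dusp16 and narrowest for Cblb. In D14, 5 of the 6 genes were at least 2-fold higher in ncMonos than in T cells, beside 18.3% of all genes and 34% of those with at least 500 CPM, and 5 were against NK cells, beside 19.3% and 29.6%. Cblb was the exception in both, at 0.70 over T cells and 0.49 (0.34 to 0.64) over NK cells. All 6 members have over 500 CPM in ncMonos, so the shares at that level are the closer background in level. The genes behind these shares were not chosen by their ncMono level as the 6 were, so the counts and medians are descriptions only. The median log2 ratio of the 6 was 3.26 over T cells and 2.17 over NK cells in D14, where the median of all genes was -0.09 and -0.12. In naive, 5 of 6 were at least 2-fold higher than in B cells, beside 19.8% of all genes and 30.5% of those with at least 500 CPM, with Cblb again under that size (0.84, 0.71 to 0.98). Over neutrophils in D14 the count was also 5 of 6, but 50% of all genes and 37.7% of those with at least 500 CPM passed there. That count depends on the processing. Among the alternative filters, gates and scalings the lowest log2 ratio was 0.87 for Dusp16 and 0.96 for Stk10, both under 2-fold.

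As a description of the contrast that chose them, the 6 genes had log2 ratios of ncMono over cMono from 1.89 (Ptprj) to 6.44 (Dusp16) in naive, from 1.79 (Ptprj) to 6.64 (Dusp16) in D11 and from 1.84 (Ptprj) to 5.92 (Dusp16) in D14. All 6 were past 2-fold in every library, beside 13.5%, 10.1% and 11.4% of all genes. The long genes of the same sums leaned the same way: genes of 70 kb and over with at least 50 CPM had a median log2 ratio of 0.57, 0.39 and 0.55 in naive, D11 and D14, and shorter genes -0.02, -0.04 and -0.10. Malat1, a nuclear RNA, stood at 25588, 16328 and 15366 CPM in ncMonos and at 12436, 8548 and 6501 CPM in cMonos. The part of gene length and nuclear RNA in these levels was not tested.

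**Figure D2:**
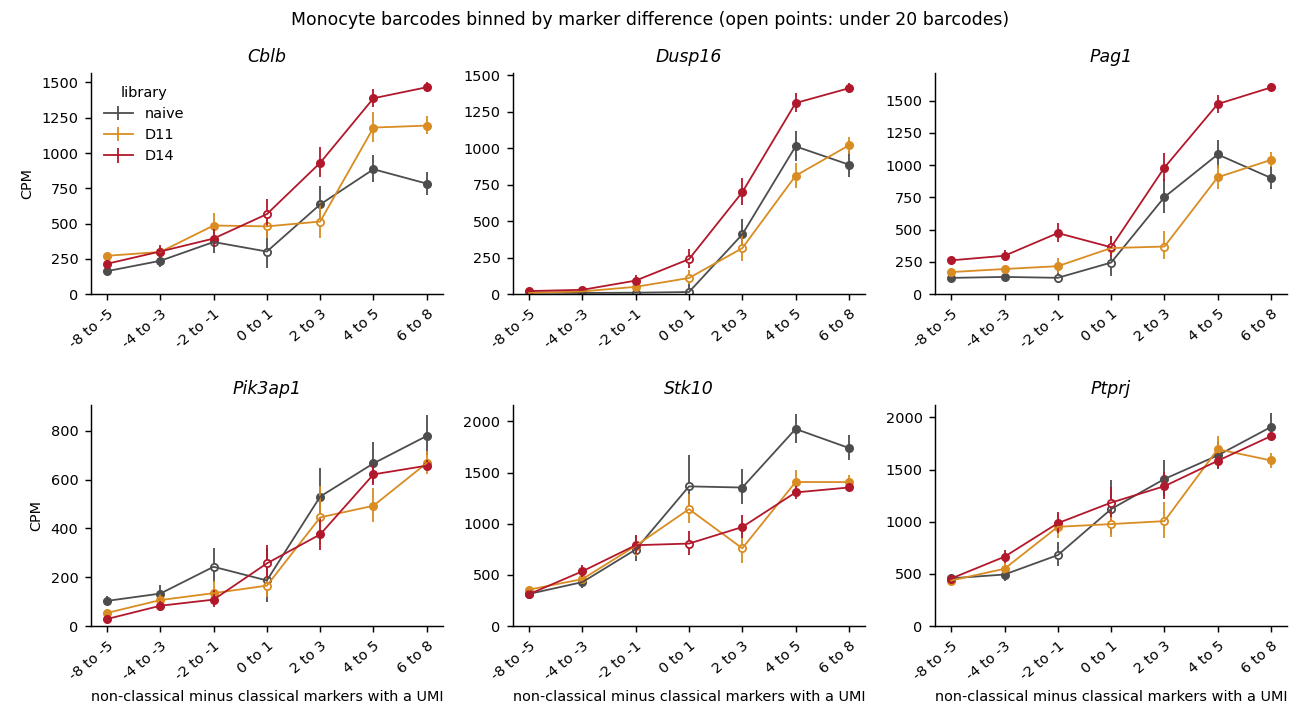
CPM of each gene in monocyte barcodes sorted into 7 bins by the number of ncMono markers minus the number of cMono markers with a UMI, with 95% Poisson intervals and 1 line per library (open points: under 20 barcodes). All 6 genes are higher in the last bin than in the first in each library. The naive points of Dusp16 up to a difference of 1 lie at 8.07 to 14.4 CPM, from 14, 4, 2 and 1 UMIs. The last of them has an interval of 0.364 to 80.1 CPM. Dusp16 reaches 1410 CPM in the last D14 bin.

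Barcodes between the monocyte classes held in-between levels in D14, but in naive not for every gene in every bin. Sorted by the number of ncMono minus cMono markers, monocytes of D14 had 20.9, 29.4, 92.5, 239, 698, 1308 and 1410 CPM of Dusp16 from the most cMono-like to the most ncMono-like bin. In the naive bin with 1 or 2 more cMono than ncMono markers, Dusp16 stood at 9.72 CPM and Pag1 at 126 CPM. That Dusp16 value rests on 2 UMIs, with an interval of 1.18 to 35.1 CPM. In the most cMono-like naive bin Dusp16 and Pag1 stood at 11.3 and 126 CPM. With 2 or 3 more ncMono than cMono markers, 23 naive barcodes held in-between levels of both, 409 and 752 CPM. The genes did not climb at the same point of this range. In the D14 bin with 1 or 2 more cMono than ncMono markers, Ptprj stood at 986 CPM, on the way to 1820 CPM in the last bin, and Stk10 at 790 on the way to 1354. Dusp16 stood at 92.5 CPM there on the way to 1410, Pik3ap1 at 108 on the way to 657, Cblb at 394 on the way to 1466 and Pag1 at 473 on the way to 1601. In D14, Ptprj and Stk10 thus had more of their final level than the other genes in barcodes still richer in cMono markers. The same D11 bin had Ptprj at 951 CPM on the way to 1587. Stk10 stood there at 784 on the way to 1407 and Cblb at 486 on the way to 1194. Naive had another order, with Cblb at 369 CPM on the way to 783. Its Stk10 stood at 748 on the way to 1740 and its Ptprj at 680 on the way to 1908. This bin holds 19, 22 and 20 barcodes in naive, D11 and D14, and bins of 0 to 1 hold 7, 19 and 13. The middle of the range is thus thinly filled. The bins are ranges of a marker score and not cell types.

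At an equal depth of 1000 UMIs per barcode, 79.3% of naive, 77.1% of D11 and 90.03% of D14 ncMonos held UMIs of at least 3 of the 6 genes. In the other leukocyte classes that share was 3.497% to 19.7%, apart from 30.2% in intermediate barcodes of both leukemic libraries and at most 2.33% in leukemia cells. The 6 genes were chosen by their ncMono level, so the gap between ncMonos and other classes in such shares is a description only. Other genes of a like ncMono level were not counted this way. The mean number of the 6 genes per barcode was 3.64, 3.72 and 4.09 in ncMonos and 1.03 to 1.62 in T cells, NK cells, B cells, neutrophils and cMonos. At the full depth, 78.4%, 84.6% and 93.9% of ncMonos held all 6, with median depths of 7673, 7755 and 9222.5 UMIs. Erythroid barcodes are a weak background for this count, since hemoglobin took 90.9% of their UMIs in D11 and 89.1% in D14 and few other UMIs remain among 1000. They had a mean of 0.0111 genes in D11 and 0.0472 in D14.

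**Figure D3:**
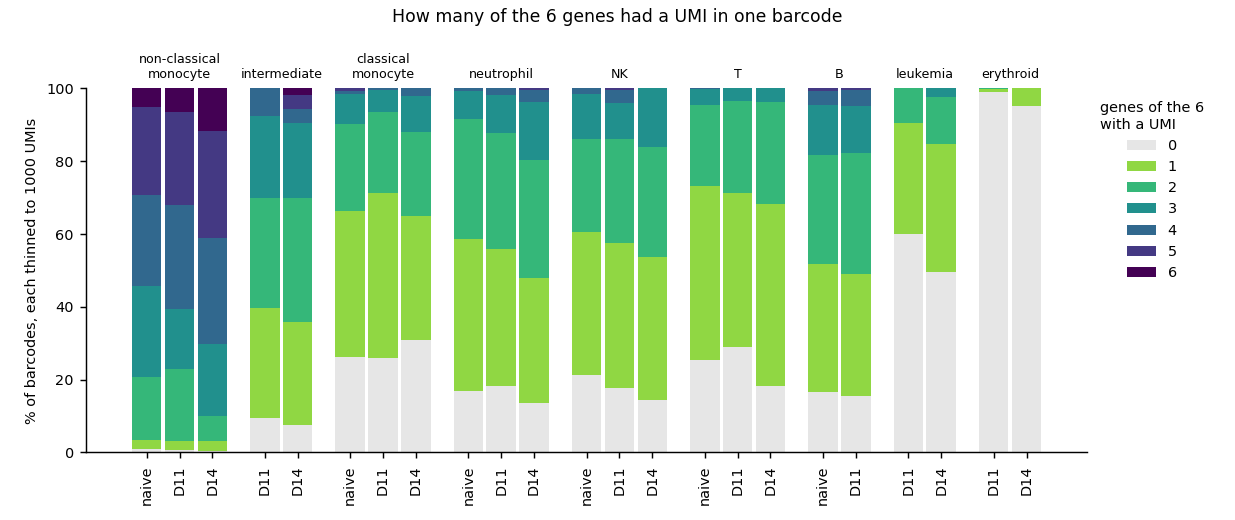
Percentage of barcodes, each thinned to 1000 UMIs, in which 0 to 6 of the 6 genes had a UMI, by gate and library. The ncMono bars hold at least 3 of the genes in 77.1% to 90.03% of barcodes, and the erythroid bars, where hemoglobin took most of the UMIs, hold none of them in 99.0% (D11) and 95.3% (D14). The genes were chosen by their ncMono level.

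The same equal depth gave the share of barcodes with each gene. Ptprj was found in 79.3%, 78.2% and 78.9% of ncMonos at 1000 UMIs, against 38.8%, 36.6% and 40.7% of cMonos. Dusp16 was found in 50.9%, 56.9% and 70.4% of ncMonos and in 0.746%, 1.32% and 3.30% of cMonos, where the D14 interval runs from 0.685% to 9.33%. Within ncMonos the per-barcode level was broad: for Dusp16 in D14 the 10th, 50th and 90th percentiles were 500, 1352 and 2389 CPM. For Pik3ap1 they were 174, 567 and 1276 CPM. The median depth was 9222.5 UMIs, so each barcode held few UMIs of a gene. The spread includes this counting error, and its part was not separated.

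Within ncMonos the 6 genes parted with leukemia, 3 higher in D14 than in naive, 1 level and 2 lower. The D11 and D14 ratios share the naive library. Cblb was higher in D11 (log2 ratio over naive 0.52, 0.40 to 0.65) and higher still in D14 (0.82, 0.71 to 0.93). Pag1 and Dusp16 were near their naive level in D11 (-0.00, -0.12 to 0.12, and 0.08, -0.05 to 0.20) and above it in D14 (0.68, 0.58 to 0.78, and 0.63, 0.52 to 0.73). Ptprj was slightly lower in D11 (-0.14, -0.23 to -0.05) and level in D14 (0.01, -0.07 to 0.08). Pik3ap1 was lower in both (-0.23, -0.37 to -0.09, and -0.14, -0.26 to -0.02), and so was Stk10 (-0.37, -0.46 to -0.28, and -0.41, -0.49 to -0.34).

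None of the 6 was past 2-fold in either direction in D11 (3.19% of 8271 genes were higher and 5.03% lower) or in D14 (4.26% of 8314 genes were higher and 4.64% lower). At 1.5-fold, Cblb, Pag1 and Dusp16 were higher in D14, beside 11.2% of all genes and 9.51% of the 389 genes with at least 500 CPM. The median of the 6 was -0.07 in D11 and 0.32 in D14, where the median of all genes was -0.07 and -0.02. The share of ncMonos with a UMI at 1000 UMIs moved the same way for the 3 genes that were higher: Cblb from 48.3% to 64.9% and 71.7%, Pag1 from 57.8% to 60.1% and 74.0%, and Dusp16 as given above. For Stk10 it was 72.4%, 71.3% and 68.3%, with intervals that overlap.

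Several other measures of the ncMono sums moved with these values. Hspa1a, a heat shock gene, went from 7.63 to 152 and 513 CPM and Malat1 from 25588 to 16328 and 15366 CPM, while genes of 70 kb and over had a median log2 ratio over naive of -0.17 in D11 and -0.04 in D14. Their part in the differences of the 6 genes was not tested. Leaving out barcodes with over 5% hemoglobin gave a median of 0.34 for the 6 genes in D14, beside 0.32 with them.

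**Figure D4:**
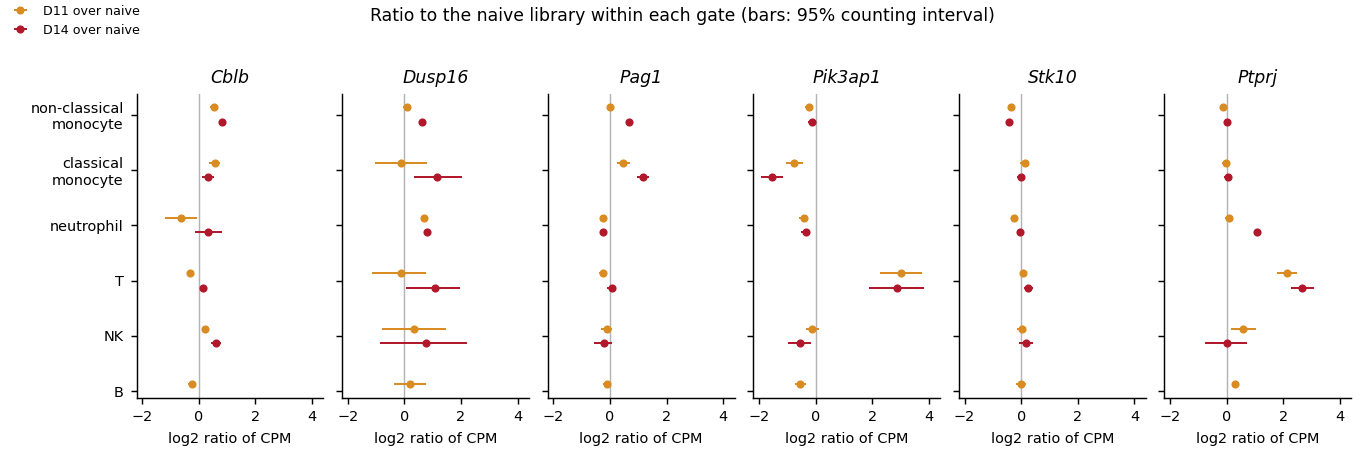
Log2 ratio of CPM over the naive library for each gene within 6 gates (orange D11, red D14; bars are 95% counting intervals; B cells have no D14 value). In ncMonos the D14 values run from -0.41 (Stk10) to 0.82 (Cblb), and the widest shifts are those of Pik3ap1 and Ptprj in T cells, which rest on few UMIs.

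The same genes did not move alike in other cells. In cMonos, Pag1 was higher in D14 than in naive (1.16, 0.94 to 1.39) and so was Dusp16 (1.14, 0.33 to 2.02), and Pik3ap1 was lower (-1.54, -1.94 to -1.15). With 1 CPM added to both sums, 2 members were past 2-fold higher, beside 7.26% of 8417 genes, and 1 lower, beside 4.55%. Cblb in cMonos was higher in both leukemic libraries (0.56, 0.38 to 0.76, and 0.34, 0.13 to 0.55). Stk10 and Ptprj had intervals in cMonos that included 0 in D11 and D14. The 6 neutrophil check markers went from 200.1 to 1608 and 5935 CPM in the cMono gate, and the 8 neutrophil gate markers from 267 to 299 and 326 CPM. Neutrophils held more Pag1 and Dusp16 than cMonos in each library, and the part of neutrophil RNA in the cMono values was not tested.

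In neutrophils, Ptprj was level in D11 (0.09, -0.05 to 0.22) and more than 2-fold higher in D14 (1.09, 0.97 to 1.20), beside 8.01% of 6582 genes. Dusp16 was higher in both (0.69, 0.58 to 0.79, and 0.79, 0.68 to 0.89), whereas Pag1 (-0.24 and -0.25) and Pik3ap1 (-0.41 and -0.35) were lower in both. The median of all genes in neutrophils was -0.24 in D11 and -0.27 in D14, so Pag1 stood near the middle of all genes there. Neutrophil checks also shifted: the sum of 6 check markers, S100a8 and S100a9 among them, went from 91487 to 125140 and 163058 CPM.

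In T cells, Ptprj went from 13.7 CPM to 59.9 and 87.5 CPM, log2 ratios of 2.12 (1.78 to 2.47) and 2.67 (2.27 to 3.06). Pik3ap1 went from 2.33 to 18.9 and 17.1 CPM, which are 41 and 16 UMIs. With 1 CPM added to both sums these were the 2 members past 2-fold, beside 4.77% of 8273 genes in D11 and 7.27% of 8491 in D14. The Ptprj UMIs of D14 lay in 22 of 110 barcodes, 36 of the 82 in the 5 richest, and without the richest barcode the level was 78.2 CPM. Split by Cd4 and Cd8, CD4 cells had 14.1, 53.3 and 135 CPM and CD8 cells 10.7, 60.4 and 7.92 CPM, the last from 2 UMIs in 30 barcodes. Check markers of other classes moved in the T gate as well: those of B cells went from 79.6 to 112 and 221 CPM, those of leukemia cells from 54.4 to 133 and 258 CPM, those of NK cells from 658 to 1013 and 1154 CPM and those of neutrophils from 102.4 to 117 and 365 CPM. The ncMono check markers stood there at 57.0, 51.6 and 79.0 CPM and the cMono check markers at 1118, 2150 and 1662 CPM. The T check markers stood at 6239, 5293 and 5337 CPM. ncMonos, cMonos, neutrophils, B cells and leukemia cells all carried more Ptprj than T cells, where given. The part of other cells' RNA in the T cell values was not tested. Erythroid barcodes, whose other genes are diluted by hemoglobin, held 12.4 CPM of Ptprj in D14. A UMI was found in 7.09% of them against 20% of T cells, at median depths of 6604.5 and 7611 UMIs. Hemoglobin took 89.1% of these erythroid UMIs and 2.15% of those of T cells. The shares are thus not at a like depth of other genes and give no background for T cells.

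In NK cells Cblb was higher in D11 (0.24, 0.11 to 0.36) and D14 (0.60, 0.43 to 0.77), Ptprj was higher in D11 (0.58, 0.15 to 1.02) and level in D14 (0.01, -0.77 to 0.73), and Pik3ap1 was lower in D14 (-0.56, -0.96 to -0.18). In B cells of D11, Ptprj was higher than in naive (0.30, 0.18 to 0.42), and Cblb (-0.25, -0.39 to -0.11) and Pik3ap1 (-0.54, -0.72 to -0.36) were lower. Pik3ap1 was thus below its naive level in ncMonos, cMonos, neutrophils and NK cells in D14, with each interval below 0. It was above that level in T cells, where it was nearly absent in naive. In neutrophils its D14 value of -0.35 lay near the median of all genes, -0.27.

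Among 107 other genes of the same pathways, in 7 lists, 85 reached 10 CPM in ncMonos of naive or D14. Past 2-fold, 6 were higher and 1 was lower in D14, beside 4.26% and 4.64% of all genes, and the median of the 85 was 0.02. Of the 6, 5 were in the list of DOK, SOCS and other feedback inhibitors (18 of 25 genes measured): Tnfaip3, Nfkbia, Socs3, Socs7 and Spred1. Tnfaip3, the ubiquitin editing enzyme A20 that ends NF-kB signals, went from 20.7 to 68.3 and 112 CPM (2.43, 1.78 to 3.18), and Rasa3, a Ras GTPase activating protein, from 719 to 549 and 519 CPM (-0.47, -0.59 to -0.35). The same 5 were the genes past 2-fold higher in D11, when Bank1 and Ptpn7 were lower, and both ratios share the naive library. Socs7 rests on 8 naive UMIs. Highest and lowest below are among the genes of a list with at least 50 CPM.

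Of the ubiquitin ligases and their partners (8 of 12 genes measured), Ubash3b (STS-1), a phosphatase that binds CBL proteins, was the 1 past 2-fold, from 145 to 209 and 380 CPM (1.39, 1.14 to 1.65). Itch, a ubiquitin ligase like Cblb in function, was lowest of this list, with 489, 428 and 397 CPM. In the list of MAPK phosphatases and their kinases, 13 of 16 genes were measured and 0 were past 2-fold, while 1 was higher and 3 were lower at 1.5-fold, with Dusp2 highest (70.9, 81.8 and 109 CPM) and Dusp22 lowest (63.2, 36.3 and 39.3 CPM). Of CSK and membrane adaptors, where Pag1 belongs, 8 of 12 were measured and 0 were past 2-fold. Slc9a3r1, which binds PAG1, went from 29.4 to 42.4 and 55.1 CPM, and Ptpn22, a phosphatase that works with CSK, from 155 to 96.0 and 91.1 CPM.

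Of the PI3K list (15 of 18 genes measured), Pik3r5, a regulatory subunit of PI3K gamma, was highest at 269, 296 and 413 CPM. Bank1, an adaptor related to BCAP, was past 2-fold lower, from 88.3 to 39.99 and 15.5 CPM. It is itself 1 of the 8 B markers and a large part of their sum in this gate, which was 158, 73.2 and 31.6 CPM. The 6 B check markers, which do not include Bank1, went from 148 to 113 and 61.8 CPM. Of 14 tyrosine phosphatases, 13 were measured and 0 were past 2-fold. Ptpn1 (PTP1B) was highest, from 601 to 773 and 1133 CPM, and Ptpro, of the same receptor subfamily as Ptprj, lowest, from 269 to 210 and 184 CPM. Of 10 relatives of Stk10 and ERM proteins, all measured, 0 were past 2-fold and the median log2 ratio was -0.21. Ezr (ezrin), a substrate of STK10, went from 191 to 244 and 279 CPM, and the kinase Stk17b from 797 to 500.1 and 534 CPM.

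**Figure D5:**
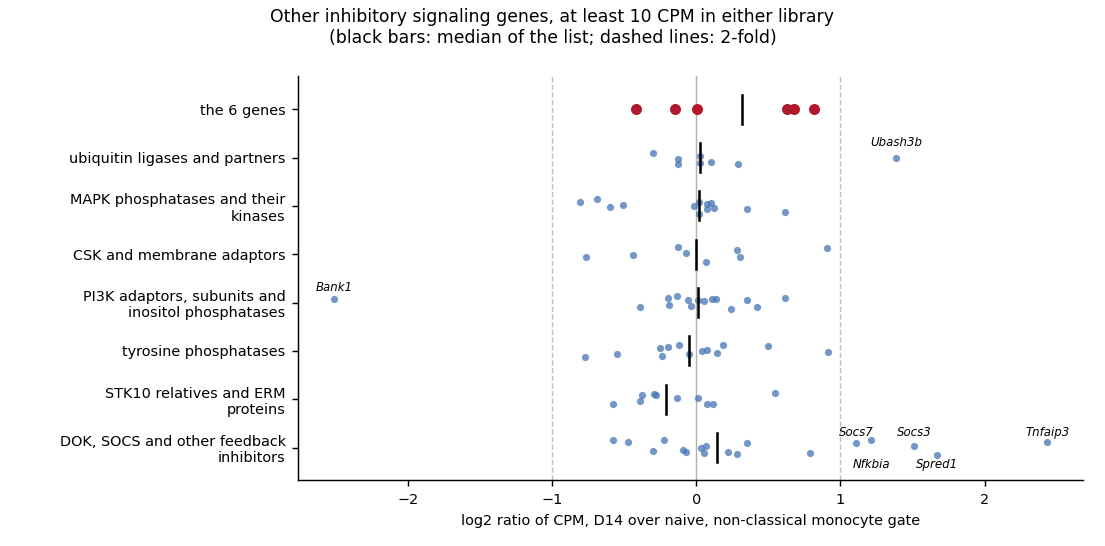
Log2 ratio of CPM in ncMonos, D14 over naive, for the 6 genes (red) and for the genes of 7 pathway lists with at least 10 CPM in either library (blue), with the median of each list as a black bar and 2-fold as dashed lines. The medians of the lists run from -0.21 to 0.14, and the named genes are the 7 past 2-fold.

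Over the 23 class sums, the 6 genes did not share 1 pattern. Pearson's r of log2(CPM + 1) between pairs of them ran from 0.15 (Cblb and Dusp16) to 0.88 (Pag1 and Stk10), as a description over sums that share libraries, depth and the low erythroid values. The genes most like each member, among 6876 with at least 50 CPM in some sum, were Evl for Cblb (r = 0.98), Gk for Dusp16 (0.93), Pbxip1 for Pag1 (0.97), 5430427O19Rik for Pik3ap1 (0.95), Rap1b for Stk10 (0.99) and Crybg3 for Ptprj (0.96). Also among the 3 most like genes were Nrip1 and Dcp1b for Cblb, Tgm3 and Rps6ka2 for Dusp16, Nfat5 for Pag1, Plcg2 and Tfeb for Pik3ap1, Napg and Fcho2 for Stk10, and Napsa and Apobec1 for Ptprj. No member was among the 3 genes most like another.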

How the data were processed

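PB leukocytes were profiled by scRNA-Seq in 3 libraries (naive, D11 and D14). The authors deposited filtered matrices of raw counts, that is, whole UMIs by gene and barcode. The submitters' processing notes name Cell Ranger 7.1.0 and mm10, whereas the matrix headers carry version 5.0.1. Whether reads in introns were counted is not given in the sources used here, and it bears on the level of long genes.

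The members, marker lists, pathway lists and the rule for named genes were chosen with earlier results of these data known. Barcodes passing the limits of 200 genes and 10% mitochondrial UMIs were gated by 8 markers per class, UMIs were summed per gate and library, and sums of at least 50 barcodes were given as CPM. Intervals are 95% and exact: Poisson for levels, conditional binomial for ratios, Clopper-Pearson for shares (scipy 1.17.1). They cover counting error only. Ratios over all genes and medians used log2(CPM + 1) for genes with at least 10 CPM in either sum, and member ratios had nothing added. Depth per library was 30362408, 57640396 and 65861863 UMIs, and class sums ranged from 360566 to 21050891 UMIs. For shares, each barcode was thinned to 1000 UMIs, and shallower barcodes were left out (at most 143 in a gate). Doublets of different classes were limited by the rule on rival markers, apart from those of a cMono and an ncMono. The latter could fall among intermediate barcodes and in the middle bins of the marker difference. The scripts were tested on simulated data.

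Named genes were the 6 members, the genes of each pathway list with the highest and the lowest D14 to naive ratio in ncMonos among those with at least 50 CPM, and the 3 genes most like each member, of which 1 is not reported here. Pathway genes past 2-fold were named too, and these, the minimum of 500 CPM, the span of 70 kb and the T cell level without its richest barcode were chosen after the values were seen. Alternatives used other barcode filters and gates, Scrublet (scanpy 1.11.5), TMM factors (edgeR 4.0.16) and other scalings.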

Additional observations from a re-analysis of the deposited data

Results flagged for a closer look

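Some genes stood on opposite sides of their naive level in different cells of the same libraries, with both counting intervals apart from 0, which is why they are listed. The values are log2 ratios over naive, each from 1 library per condition, and the difference between the cells was not tested. In D11, Cblb was 0.56 in cMonos and -0.63 in neutrophils, the latter from 55 UMIs against 61. Pag1 was 0.47 in cMonos and -0.26 in T cells. Pik3ap1 was 3.02 in T cells and -0.75 in cMonos, and Ptprj was 2.12 in T cells and -0.14 in ncMonos. In D14, Pag1 was 1.16 in cMonos and -0.25 in neutrophils. Pik3ap1 was 2.87 in T cells and -1.54 in cMonos, and Stk10 was 0.26 in T cells and -0.41 in ncMonos. The T cell values of Pik3ap1 rest on 27, 41 and 16 UMIs in naive, D11 and D14. The median of all genes in neutrophils was -0.24 in D11 and -0.27 in D14, so Pag1 stood near the middle of all genes there. The neutrophil check markers in the cMono gate went from 200.1 CPM in naive to 5935 CPM in D14, and their part in the cMono values was not tested.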

How the results depend on the processing

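No paired analysis was possible because each condition had 1 library. Of 86 recomputed medians of the 6 genes, 76 stayed inside a band around the reported median and 10 lay outside it. The band runs from the median of the 6 genes' lower interval limits to the median of their upper limits. It is a yardstick without a stated coverage and not a counting interval of the median. Under TMM factors the median was 0.043 for ncMonos in D11 over naive, a change of sign from -0.07 as CPM, 0.42 in D14 over naive (0.32), 2.16 for ncMonos over cMonos in D11 and 1.16 over neutrophils in D14 (2.13). TMM moved the median of all genes from -0.07 to 0.05, from -0.02 to 0.09 and, against neutrophils, from 1.002 to -0.10. With the mean of per-cell CPM it was 0.38 for cMonos in D14 over naive, 2.30 for ncMonos over cMonos and 1.83 over neutrophils in D14. Without ribosomal, mitochondrial and hemoglobin genes it was 2.40 over cMonos and 3.35 over leukemia cells in D14, and with limits of 500 genes and 5% mitochondrial UMIs 3.61 over leukemia cells. Of 516 values of single genes, 445 stayed within the counting interval of the reported value, 70 moved and 1 reversed, Pag1 over neutrophils in D14 under TMM at -0.49. Only values whose interval lay apart from 0 could count as reversed. Other values near 0 changed sign too. Over naive, Pag1 in ncMonos of D11 kept its sign in 2 of 9 alternatives and Ptprj in ncMonos of D14 in 6 of 9. In cMonos of D14, Stk10 kept it in 5 of 8 and Ptprj in 7 of 8. Pathway genes higher in D14 numbered 11 at 1.5-fold and 10 without the CPM minimum, against 6, and those lower numbered 6 at 1.5-fold, 4 without the minimum, 2 with the mean of per-cell CPM and 2 under the stricter gate, against 1. The cause of these shifts was not tested, apart from the wider limits by construction. The stricter gate gave no value for cMonos in D14, for ncMonos over cMonos in naive and D14 or for NK cells in D14, with under 50 barcodes. Scrublet removed 116, 167 and 156 barcodes in naive, D11 and D14, with 2, 2 and 12 of them ncMonos. Depth limits Dusp16 in cMonos and Pik3ap1 in T cells.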

Other observations

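Barcodes that no class took, 291 in naive, 661 in D11 and 1159 in D14, also carried the 6 genes. Cblb stood at 461, 133 and 154 CPM in them, Pag1 at 443, 238 and 251 CPM, and Stk10 at 444, 177 and 149 CPM. Ptprj stood at 290, 196 and 291 CPM, Pik3ap1 at 159, 77.8 and 68.9 CPM, and Dusp16 at 95.9, 70.3 and 82.4 CPM. All of these lay below the ncMono level of the same gene and library.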
